A study of Mus musculus with 12 samples.

Results

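The expression of 9 genes of the type I interferon pathway was followed in bone marrow B cells cultured in normoxia or hypoxia. They encode the receptor chains Ifnar1 and Ifnar2, the receptor-bound kinases Jak1 and Tyk2, the signal transducer Stat2, and the interferon regulatory factors Irf1, Irf3, Irf7 and Irf9. The members were found by symbol in the count table, where 9 of 46983 genes carry these names. All 9 were abundant enough to be tested, with 17506 genes tested in all. The mice were WT or Hif1a-deficient (labelled KO), and 3 libraries were made for each genotype in each condition, 12 in all. Per the methods of the study, Hif1a f/f mice carried Mb1-cre, a knock-in at the B cell gene Cd79a that deletes floxed alleles in the B lineage. The controls of the study were littermates, and the labels say only WT for the libraries used here, so their Cre status is not stated. If they carry no Cre, KO against WT differs in Cre and in a Cd79a allele as well as in Hif1a. These cannot be told apart here. B cells were taken from bone marrow with magnetic beads, and the question posed by the series was which genes HIF-1α, the oxygen-regulated transcription factor, controls in them. Whether the 3 libraries of a group stem from different mice is not stated, so the p-values rest on the spread between libraries alone.

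Type I interferon binds the receptor made of Ifnar1 and Ifnar2, which activates Tyk2 and Jak1. These kinases phosphorylate Stat2, which joins Irf9 in a complex called ISGF3 that enters the nucleus and switches on interferon-stimulated genes. Irf7 is itself such a gene, and it drives further interferon production, so that it amplifies the signal. Irf3 is present before any stimulus and is activated by phosphorylation downstream of nucleic acid sensors. Irf1 is induced by interferons and by NF-κB. Plasmacytoid dendritic cells, which can be found in bone marrow, carry a high level of Irf7 and are a rich source of type I interferon.

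Between 27629175 and 36880082 reads were counted per library. All 10 B cell markers were detected in every group, with a summed level of 7078 to 9273 CPM (counts scaled to a common library size with TMM factors). Cd79a, the gene that carries the Mb1-cre knock-in, was at 1460 to 1913 CPM in the WT libraries against 776 to 881 CPM in KO. Whether a Cre allele in KO alone underlies this difference was not tested. Ankrd37, a HIF target, was at 1.33 to 2.24 CPM in WT normoxia and at 143 to 159 CPM in WT hypoxia, against 0.276 to 0.382 CPM in KO normoxia and 14.2 to 18.4 CPM in KO hypoxia. Counts over the whole Hif1a gene include exons outside a deleted part and check nothing. Hif1a averaged 89.6 CPM in WT normoxia and 93.0 CPM in WT hypoxia, against 111 and 128 CPM in KO, so these counts do not show the deletion. WT libraries 1 and 2 of both conditions held Y-linked reads at 310 to 396 CPM and almost no Xist, KO hypoxia library 1 held Y-linked reads at 46.0 CPM beside Xist, and the other libraries held Xist and 0 Y-linked counts. Sex is thus partly confounded with genotype, and the responses are also given without those libraries. The libraries of each WT group therefore do not all stem from the same mouse, and for the other libraries this stays unknown.

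The largest responses sat in Irf7, Stat2, Irf9 and Irf1, so the sequences upstream of such genes were read. RefSeq promoter windows (GRCm38.p6) of 300 bases, from 250 before to 50 after the annotated start, were found for all 9 members, with 11 windows in all. Those of Stat2, Irf1 and Irf7 are shown because they differ in what they hold while the genes fell together. Each is written 5′ to 3′ on the strand of the gene, at chr10:128270248-128270547 (plus strand), chr11:53769764-53770063 (plus strand) and chr7:141266375-141266674 (minus strand). Capitals mark an interferon-stimulated response element, searched as GAAA, any 2 bases and GAAA again, or a gamma-activated site, searched as TTCNNNGAA, on either strand.

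Stat2: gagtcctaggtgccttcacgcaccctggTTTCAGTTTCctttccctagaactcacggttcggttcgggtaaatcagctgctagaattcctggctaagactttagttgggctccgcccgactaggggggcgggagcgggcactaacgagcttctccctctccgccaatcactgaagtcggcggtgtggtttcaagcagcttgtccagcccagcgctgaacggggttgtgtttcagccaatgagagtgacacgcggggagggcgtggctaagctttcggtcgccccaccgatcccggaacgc

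Irf1: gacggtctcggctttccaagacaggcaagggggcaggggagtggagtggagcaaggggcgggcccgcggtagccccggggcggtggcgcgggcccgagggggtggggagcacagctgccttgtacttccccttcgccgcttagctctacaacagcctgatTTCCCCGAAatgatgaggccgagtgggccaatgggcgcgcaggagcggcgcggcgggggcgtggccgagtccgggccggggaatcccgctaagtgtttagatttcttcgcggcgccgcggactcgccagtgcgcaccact

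Irf7: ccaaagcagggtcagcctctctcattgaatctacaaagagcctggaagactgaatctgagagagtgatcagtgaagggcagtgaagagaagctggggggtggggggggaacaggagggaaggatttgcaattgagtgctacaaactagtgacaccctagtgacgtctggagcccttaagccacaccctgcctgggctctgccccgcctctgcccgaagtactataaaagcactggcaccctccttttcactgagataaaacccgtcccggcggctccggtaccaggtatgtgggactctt

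The capitals in Stat2 are a response element read on the opposite strand, starting at position -222 from the annotated start. It was the only one in the members' windows, and 3.44% of all 32851 windows hold such a match. The capitals in Irf1 are a gamma-activated site at -90. Sites of that kind were also matched in Ifnar1 at -5 and in Ifnar2 at -214, and in 8.3% of all windows. The Irf7 window, and those of Jak1, Tyk2, Irf3 and Irf9, held neither. The core of the HIF binding site, ACGTG or GCGTG on either strand, was matched in Ifnar1, Jak1, Tyk2, Stat2, Irf1 and Irf3, against 43.8% of all windows, and not in Ifnar2, Irf7 or Irf9. A match is only a run of letters in a short window, and no match says nothing about sites elsewhere.

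In WT cells, 5 of the 9 genes fell under hypoxia and none rose past the threshold, an adjusted p of 0.05 (edgeR quasi-likelihood test, Benjamini-Hochberg over all tested genes). Irf7 moved most and Stat2 came next, while Irf9, Irf1 and Tyk2 fell by less. Of all genes tested in this comparison, 27.8% were called, 16.3% lower and 11.4% higher. The libraries of the conditions did not overlap in 40.3% of all tested genes in WT, 20.8% lower in hypoxia, and in 48.9% in KO, 24.8% lower. The median log2 fold change was -0.27 over the members and 0.01 over all genes. In bulk libraries, fewer cells of a type and less RNA per cell cannot be told apart. The plot of levels by library shows the 12 values of each gene.

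**Figure D1:**
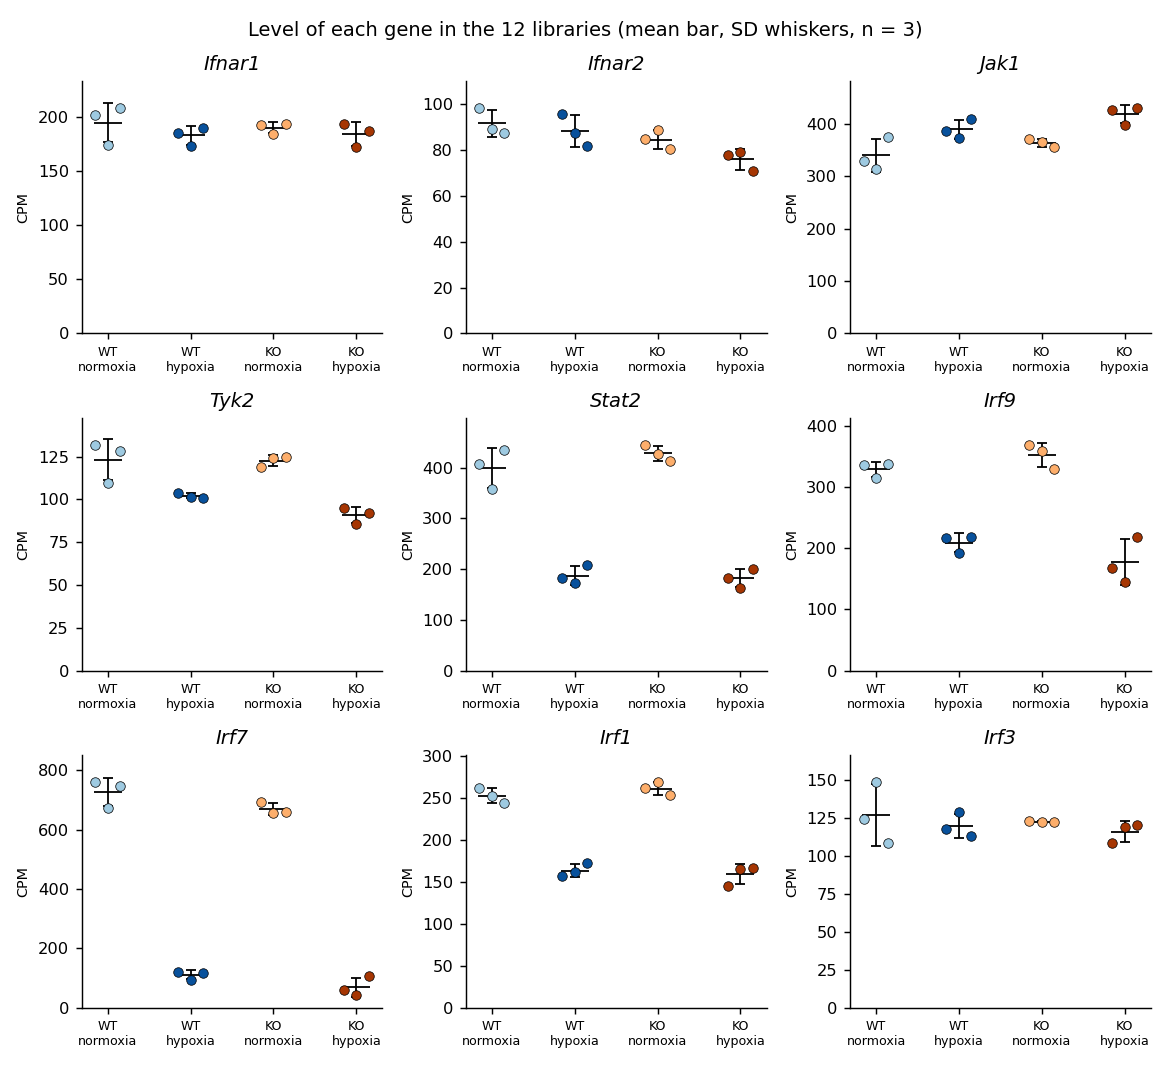
Level of each of the 9 genes in CPM (TMM-scaled counts, linear axis from 0) in the 12 libraries, by group. Points are libraries, the bar is the mean and whiskers are the SD of 3 libraries. Irf7 stands at 657 to 760 CPM in the 6 normoxia libraries and at 44.0 to 122 CPM in the 6 hypoxia libraries, while Ifnar1 overlaps between all groups.

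The receptor chains changed little. Ifnar1 (ENSMUSG00000022967, chromosome 16, 91485238 to 91507441, plus strand, mm10), the chain that binds Tyk2, was at 202, 175 and 208 CPM in WT normoxia and at 186, 173 and 190 CPM in WT hypoxia. These ranges overlapped, and the log2 fold change was -0.09 ± 0.08 (SE; edgeR adjusted p = 0.428). In KO cells it was at 193, 185 and 193 CPM in normoxia and at 194, 172 and 188 CPM in hypoxia, a log2 fold change of -0.05 ± 0.08 (edgeR adjusted p = 0.702). Its 95% intervals ran from -0.26 to 0.08 in WT and from -0.21 to 0.12 in KO.

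Ifnar2 (ENSMUSG00000022971, chromosome 16, 91372783 to 91405589, plus strand), the high-affinity ligand-binding chain that pairs with Jak1, was at 98.4, 89.3 and 87.5 CPM in WT normoxia and at 95.9, 87.7 and 81.7 CPM in WT hypoxia. The WT groups overlapped (-0.05 ± 0.08, edgeR adjusted p = 0.663). In KO cells the levels were 84.7, 88.7 and 80.6 CPM in normoxia and 78.0, 79.3 and 70.9 CPM in hypoxia. All KO hypoxia libraries thus lay below all KO normoxia libraries, but the difference of -0.15 ± 0.08 missed the threshold (edgeR adjusted p = 0.166). Of its exon bases, 9.46% lie in the same-strand gene Gm21970, so some reads could belong to either.

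Of the kinases, Jak1 and Tyk2 went in opposite directions. Jak1 (ENSMUSG00000028530, chromosome 4, 101152367 to 101265282, minus strand), which also serves many cytokine receptors, was at 330, 314 and 375 CPM in WT normoxia and at 385, 373 and 409 CPM in WT hypoxia. In KO the kinase was at 370, 365 and 355 CPM in normoxia and at 425, 398 and 430 CPM in hypoxia. The WT groups overlapped in 1 pair of libraries and the KO groups did not overlap. The log2 fold changes were 0.20 ± 0.08 in both genotypes, short of the threshold (edgeR adjusted p = 0.079 in WT and 0.0696 in KO). Same-numbered WT libraries deviated together, and with the replicate number as a block Jak1 was called higher in WT (0.20, edgeR adjusted p = 0.0462). It was also called with DESeq2 (0.22, adjusted p = 0.0451), with a filter on CPM (0.22, edgeR adjusted p = 0.0497) and without WT normoxia library 3 (0.26, edgeR adjusted p = 0.0194), and over all alternatives in WT the adjusted p ran from 0.0194 to 0.9998. In KO it was called with only the compared groups in the fit (0.19, adjusted p = 0.0337), and without WT normoxia library 2 (0.22, adjusted p = 0.0293) or 3 (0.22, adjusted p = 0.0247), with a range of 0.0247 to 1.0. The upper end in both genotypes came from a fit with the plasmacytoid dendritic cell marker level as a covariate. In that fit 0 of 17506 genes were called.

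Tyk2 (ENSMUSG00000032175, chromosome 9, 21104068 to 21131243, minus strand), the partner of Ifnar1, was at 132, 109 and 128 CPM in WT normoxia and at 104, 101 and 101 CPM in WT hypoxia. It fell by 0.27 ± 0.08 on the log2 scale (edgeR adjusted p = 0.0171), and no hypoxia library reached a normoxia library. In KO cells the levels were 119, 124 and 125 CPM in normoxia and 95.3, 85.9 and 91.9 CPM in hypoxia, again with no overlap, and it fell by 0.43 ± 0.08 (edgeR adjusted p = 0.000888). The WT call was lost without WT normoxia library 1 (-0.23, adjusted p = 0.0776), with only the compared groups in the fit (-0.26, adjusted p = 0.0768) and with monocyte and neutrophil marker levels as covariates (-0.22, adjusted p = 0.116), in a range of 0.00118 to 0.9998 over all alternatives. The upper end again came from the fit with the plasmacytoid dendritic cell marker level, where no gene was called. An antisense gene, 1700084C06Rik, covers 8.07% of its exon bases.

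Both subunits of ISGF3 among the 9 genes fell in each genotype. Stat2 (ENSMUSG00000040033, chromosome 10, 128270559 to 128292849, plus strand), which carries the transactivation domain of the complex, was at 406, 358 and 436 CPM in WT normoxia and at 182, 172 and 208 CPM in WT hypoxia. In KO cells it was at 444, 427 and 413 CPM in normoxia and at 183, 163 and 200 CPM in hypoxia. The lowest normoxia library of the 6 was far above the highest hypoxia library. It fell by 1.10 ± 0.10 in WT (2.14-fold lower, edgeR adjusted p = 5.29e-06) and fell by 1.23 ± 0.10 in KO (2.35-fold lower, edgeR adjusted p = 1.45e-06).

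Irf9 (ENSMUSG00000002325, chromosome 14, 55603571 to 55610030, plus strand), the DNA-binding subunit, was at 336, 315 and 337 CPM in WT normoxia and at 217, 192 and 219 CPM in WT hypoxia. It fell by 0.65 ± 0.12 (1.57-fold lower, edgeR adjusted p = 0.00121). In KO cells it was at 368, 359 and 330 CPM in normoxia and at 168, 146 and 219 CPM in hypoxia, and it fell by 0.99 ± 0.12 (1.99-fold lower, edgeR adjusted p = 4.92e-05). KO hypoxia library 3 matched the highest WT hypoxia library, and the other KO hypoxia libraries lay below all 3 WT ones. Exons of Rnf31 on the same strand share 2.28% of the exon bases of Irf9.

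Irf7 (ENSMUSG00000025498, chromosome 7, 141262706 to 141266481, minus strand), the amplifier of interferon production, was at 760, 674 and 747 CPM in WT normoxia and at 122, 92.9 and 118 CPM in WT hypoxia. The KO libraries held 692, 657 and 661 CPM in normoxia and 59.4, 44.0 and 105 CPM in hypoxia. The lowest of the 6 normoxia libraries, at 657 CPM, lay far above the highest of the 6 hypoxia libraries, at 122 CPM. It fell by 2.71 ± 0.26 in WT (6.55-fold lower, edgeR adjusted p = 2.84e-05) and fell by 3.27 ± 0.27 in KO (9.63-fold lower, edgeR adjusted p = 7.78e-06). Only 0.451% of all tested genes had a log2 fold change as low or lower in WT, and 0.423% in KO.

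Irf1 (ENSMUSG00000018899, chromosome 11, 53770014 to 53778374, plus strand), whose promoter above holds a gamma-activated site, was at 262, 252 and 245 CPM in WT normoxia and at 157, 162 and 172 CPM in WT hypoxia. In KO cells it was at 262, 269 and 253 CPM in normoxia and at 145, 166 and 167 CPM in hypoxia. The groups did not overlap in either genotype, and the spread within a group was small. It fell by 0.63 ± 0.07 in WT (1.55-fold lower, edgeR adjusted p = 3.24e-05) and fell by 0.71 ± 0.07 in KO (1.64-fold lower, edgeR adjusted p = 1e-05).

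Irf3 (ENSMUSG00000003184, chromosome 7, 44997648 to 45002848, plus strand), which is regulated mainly at the protein level, was at 125, 149 and 108 CPM in WT normoxia and at 118, 129 and 113 CPM in WT hypoxia. The KO libraries held 123, 123 and 122 CPM in normoxia and 109, 120 and 121 CPM in hypoxia. The WT groups overlapped, and in KO the hypoxia libraries were slightly the lower. The log2 fold changes of -0.08 ± 0.10 in both genotypes did not pass the test (edgeR adjusted p = 0.566 in WT and 0.598 in KO), and the WT interval of -0.30 to 0.13 excludes a change of the size of that in Irf1.

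**Figure D2:**
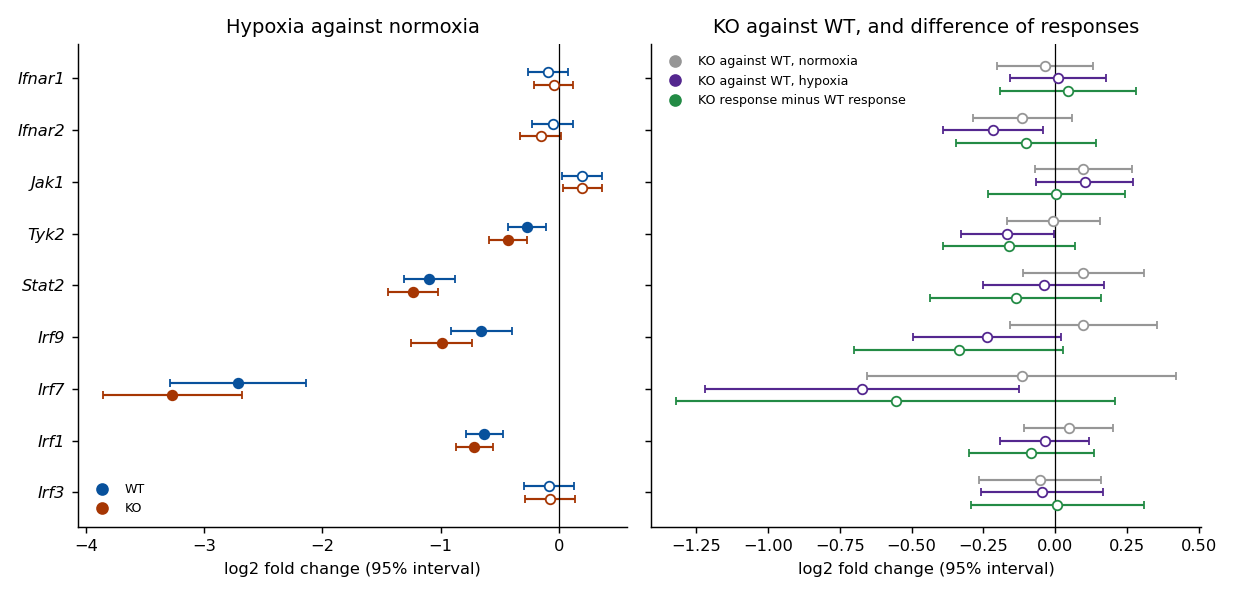
Log2 fold changes of the 9 genes (points) with 95% intervals (bars), filled where the edgeR adjusted p was at most 0.05. The left panel shows hypoxia against normoxia in WT and KO, where Irf7 stands at -2.71 and -3.27. The right panel shows KO against WT in each condition and the difference of the responses, where no gene was called.

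In KO cells, the same 5 genes fell under hypoxia as in WT, Tyk2, Stat2, Irf1, Irf7 and Irf9, and none rose past the threshold. Over all genes, 30.3% were called there, 15.7% lower and 14.5% higher. The median log2 fold change was -0.43 over the members and 0.04 over all genes. The WT and KO responses share no library. Each of the 5 falls had a lower fitted value in KO than in WT.

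The responses of the genotypes did not differ past the threshold for any member, and neither did the genotypes under either condition. For the KO response minus the WT response, 0 of 9 genes were called by edgeR, 0 had an unadjusted p under 0.05 and DESeq2 called 0, where edgeR called 0.417% of all genes, 0.314% lower and 0.103% higher. Irf7 had a difference of -0.56 ± 0.35 (95% interval -1.32 to 0.21, edgeR adjusted p = 0.658) and Irf9 one of -0.34 ± 0.17 (-0.70 to 0.03, edgeR adjusted p = 0.544). With each library left out in turn, the difference ran from -0.95 to -0.28 for Irf7 and from -0.48 to -0.18 for Irf9, with both lowest values without KO hypoxia library 3 and both highest without KO hypoxia library 2. The intervals leave room for a deeper fall in KO and do not show that the responses were alike.

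Under hypoxia, KO against WT gave 0 of 9 called by edgeR, where 9.84% of all genes were called, 5.12% lower and 4.72% higher. Irf7, Ifnar2 and Tyk2, 3 of the 9, had an unadjusted p under 0.05, all lower in KO. Irf7 differed by -0.67 ± 0.25 (edgeR adjusted p = 0.115), and its KO libraries at 59.4 and 44.0 CPM lay below all WT libraries while the third, at 105 CPM, lay among them. Without KO hypoxia library 3, edgeR called Irf7 (-1.07, adjusted p = 0.00214) and Irf9 (-0.39, adjusted p = 0.0312). In that fit 1266 of all 18079 genes tested were called. Without KO hypoxia library 2, the values were -0.40 for Irf7 and -0.087 for Irf9, and neither was called. With all libraries DESeq2 called Irf7 (-0.67, DESeq2 adjusted p = 0.0196), and it called 2404 of 14432 genes. Over the alternatives the adjusted p of Irf7 ran from 0.00214 to 0.9901 and that of Irf9 from 0.0312 to 0.997. Both upper ends came from a fit with the plasmacytoid dendritic cell marker level as a covariate, where 0 of 17506 genes were called. Ifnar2 differed by -0.22 ± 0.08 (edgeR adjusted p = 0.106) and Tyk2 by -0.17 ± 0.08 (edgeR adjusted p = 0.188), and these were the genes whose KO and WT hypoxia libraries did not overlap, as in 31.7% of all tested genes, 16.3% lower in KO. In the same comparison 6 of 10 plasmacytoid dendritic cell markers were called lower in KO, with a median of -0.44 over the list, and 4 of 12 monocyte and macrophage markers, with a median of -0.64, against -0.03 over all genes. Marker levels were used as covariates only in the alternative fits, and no other test of their part in the differences was made.

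Under normoxia, KO against WT gave 0 of 9 called, 0 with an unadjusted p under 0.05 and 0 by DESeq2, where edgeR called 0.0228% of all genes (4 genes), 0.0171% lower and 0.00571% higher. The libraries of the genotypes overlapped for all 9 genes, and did not overlap in 12.5% of all tested genes. The fitted differences ran from -0.12 for Irf7 and Ifnar2 to 0.10 for Irf9, Jak1 and Stat2.

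Per length of exon, the order of the genes changed with oxygen. In WT normoxia Irf7 stood first at 193 ± 12.2 CPM per kb (SD, n = 3), above Stat2 at 67.5 ± 6.61, Irf1 at 63.7 ± 2.23 and Irf9 at 61.1 ± 2.30, whose libraries overlapped from one rank to the next. Jak1 followed at 47.0 ± 4.40 CPM per kb, then Irf3 at 37.0 ± 5.89, Ifnar1 at 32.8 ± 3.02, Ifnar2 at 27.6 ± 1.76 and Tyk2 at 17.9 ± 1.76. Irf3 and Ifnar1 overlapped, as did Ifnar1 and Ifnar2, and Tyk2 lay apart from all.

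In WT hypoxia Jak1 led at 53.9 ± 2.51 CPM per kb and Tyk2 was last at 14.9 ± 0.211, and every pair of neighbours from Irf1 (41.1 ± 2.01) through Irf9, Irf3, Stat2, Ifnar1 and Irf7 to Ifnar2 (26.6 ± 2.15) overlapped. Irf7 had become seventh at 29.4 ± 4.16 CPM per kb. In KO the order was Irf7 first at 177 ± 5.14 CPM per kb in normoxia, and Jak1 first at 57.8 ± 2.37 in hypoxia, where Irf7 was eighth at 18.4 ± 8.46 and overlapped with its neighbours Ifnar2 and Tyk2.

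**Figure D3:**
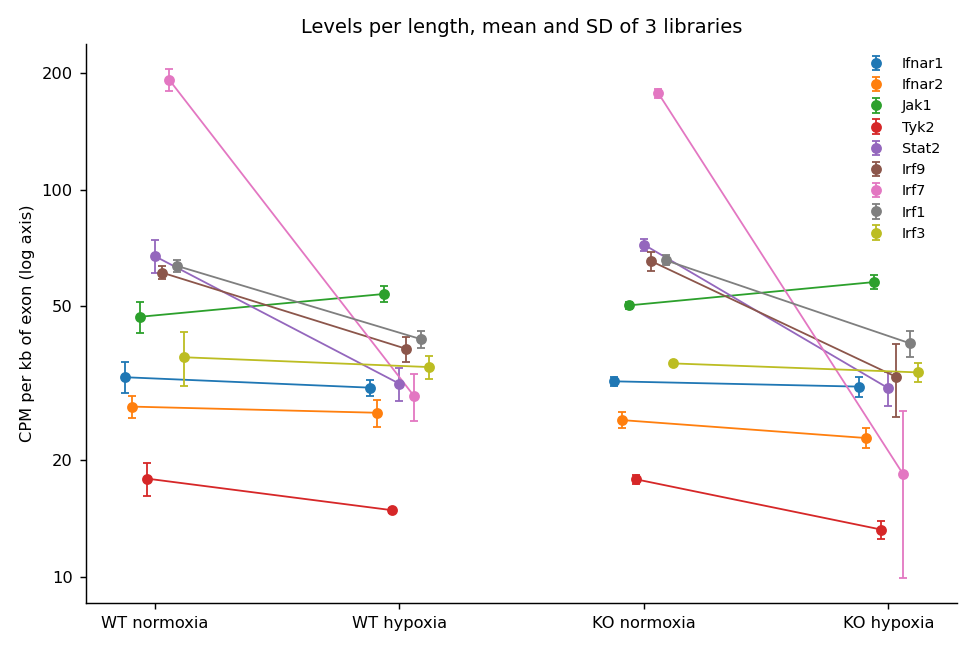
Level of the 9 genes in CPM per kb of exon (log axis) in the 4 groups. Points are means and whiskers the SD of 3 libraries, and lines join normoxia to hypoxia within a genotype. Irf7 drops from 193 to 29.4 CPM per kb in WT and from 177 to 18.4 in KO, while Jak1 rises from 47.0 to 53.9 and from 50.3 to 57.8 without passing the test.

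Over the 12 libraries, the log2 CPM of Irf7 ran with that of Irf9 (Pearson r = 0.98), Stat2 (0.98), Irf1 (0.96) and Tyk2 (0.93). Jak1 ran against Irf1 (-0.76) and Irf7 (-0.75), and Ifnar1 ran weakly with Irf7 (0.47). These values describe libraries that share 4 groups, so they mostly restate the difference between the conditions. Among 11396 genes compared, those most like Irf7 were Zbp1 (0.9985), Oas1a (0.9981) and Dhx58 (0.997). Those most like Stat2 were Pml (0.9966), Uba7 (0.9964) and Gbp6 (0.9962), and those most like Irf9 were Ifi206 (0.9928), Trim12c (0.9925) and Parp12 (0.992). For Irf1 they were Rabepk (0.9933), Stk19 (0.9931) and St6galnac4 (0.9912), and for Tyk2 Lrrk1 (0.9801), Siae (0.9797) and Cul9 (0.9778). Jak1 was most like Arhgap12 (0.9783), Hipk3 (0.9731) and Klhl24 (0.9702), Irf3 most like Ngdn (0.9715), Mcrip1 (0.9623) and Plekhj1 (0.9595), Ifnar1 most like Rapgef2 (0.9449), Dync1h1 (0.9363) and Npc1 (0.9304), and Ifnar2 most like Ybey (0.9104), Ift81 (0.9021) and Apol7c (0.8954).

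Downstream of the 9 genes, all 20 listed interferon-stimulated targets fell under hypoxia in both genotypes, with a median log2 fold change of -2.87 in WT and -3.50 in KO. Isg15, a ubiquitin-like protein, fell by 3.23 in WT (edgeR adjusted p = 6.92e-06) and fell by 3.71 in KO. Its level was 163, 170 and 168 CPM in WT normoxia and 18.7, 13 and 21.9 CPM in WT hypoxia. Bst2, which tethers budding virions, fell by 1.495 in WT (edgeR adjusted p = 1.67e-06) and fell by 1.76 in KO, and Cxcl10, a chemokine, fell by 3.34 in WT and fell by 3.95 in KO. Between the genotypes under hypoxia 1 of the 20 was called, Cxcl10 (-1.09, edgeR adjusted p = 0.0248), which had only 17 to 50 counts in those libraries. KO hypoxia library 3, the one in which Irf7 stood high, had a summed target level of 930.5 CPM against 593 and 494 CPM in the other KO hypoxia libraries, within the WT hypoxia range of 733 to 1028 CPM.

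Of the 12 other receptors, JAKs and STATs, 2 fell and 4 rose in WT hypoxia, with a median of 0.18. Ifngr1, a chain of the interferon-γ receptor, rose by 0.56 (edgeR adjusted p = 0.000138), from 62.0, 68.7 and 63.7 CPM to 99.2, 101 and 86.9 CPM, and Stat6, which serves IL-4, rose by 0.24 (adjusted p = 0.0134). Others called in WT, named after their values were seen, were Stat5a, which fell by 0.33, and Ifnlr1 (0.70) and Jak3 (0.46), which rose. In KO 3 rose (Ifngr1, Ifnlr1 and Stat6) and 3 fell, among them Stat5a and Il10rb. KO against WT in hypoxia gave 3 lower genes, chosen in the same way, Jak3 (-1.01, edgeR adjusted p = 0.00118), Stat4 (-0.76, adjusted p = 0.0292) and Ifngr1 (-0.34, adjusted p = 0.0158). For this list and those below, the shares of all genes called in WT were 16.3% lower and 11.4% higher. In KO they were 15.7% and 14.5%, and for KO against WT in hypoxia 5.12% and 4.72%.

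Of the 5 other IRFs, Irf8, a factor of B cell and dendritic cell development, fell by 0.63 in WT (edgeR adjusted p = 0.000151) and fell by 0.79 in KO, and no other passed in WT. It was at 1397, 1377 and 1231 CPM in WT normoxia and 830, 865 and 895 CPM in WT hypoxia. In KO Irf4, a factor of plasma cell development, rose by 0.31 (adjusted p = 0.00964), and under hypoxia it was higher in KO than in WT (0.47, edgeR adjusted p = 0.00365).

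Of 13 negative regulators 3 fell in WT and none rose. Usp18, which removes Isg15 from proteins and blocks Ifnar2 signalling, fell by 2.99 (edgeR adjusted p = 7.55e-05), from 169, 173 and 200 CPM to 22.9, 16.3 and 28.8 CPM. Socs1, an inhibitor of JAK kinases that is induced by interferons, fell by 0.95 (adjusted p = 6.84e-05) and the phosphatase gene Ptpn1 fell by 0.23 (adjusted p = 0.0169). In KO 2 of the 13 fell, Usp18 by 3.55 and Socs1 fell by 1.05, and 4 rose, by 0.29 to 0.52, namely Socs2, Pias1, Pias2 and Pias3, which are named after their values were seen. In KO against WT under hypoxia 1 of the 13 was called, the phosphatase gene Ptpn6 (-0.36, edgeR adjusted p = 0.0498), also named after its value was seen.

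Upstream of Irf3 and Irf7, 6 of 14 kinases, sensors and adaptors fell and 1 rose in WT, and the same numbers moved in KO. Unc93b1, which carries endosomal Toll-like receptors to their compartment, fell by 0.53 in WT (edgeR adjusted p = 0.000159) and fell by 0.47 in KO. Myd88, the adaptor through which these receptors reach Irf7, fell by 0.48 (adjusted p = 0.000402) in WT and fell by 0.53 in KO. Tlr7, a receptor for single-stranded RNA, fell by 1.17 (adjusted p = 0.000751) in WT and fell by 1.55 in KO. The gene that rose, named after its values were seen, was Traf6, a ubiquitin ligase in the same route (0.34, adjusted p = 0.00713, and 0.66 in KO). Under hypoxia Traf6 (0.50, edgeR adjusted p = 0.00326) and the IκB kinase gene Chuk (0.35, adjusted p = 0.0225) were higher in KO than in WT, and Irak4, a kinase that binds Myd88, was lower (-0.27, adjusted p = 0.0382). They are the 3 of the 14 called in that comparison and were named after their values were seen.

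**Figure D4:**
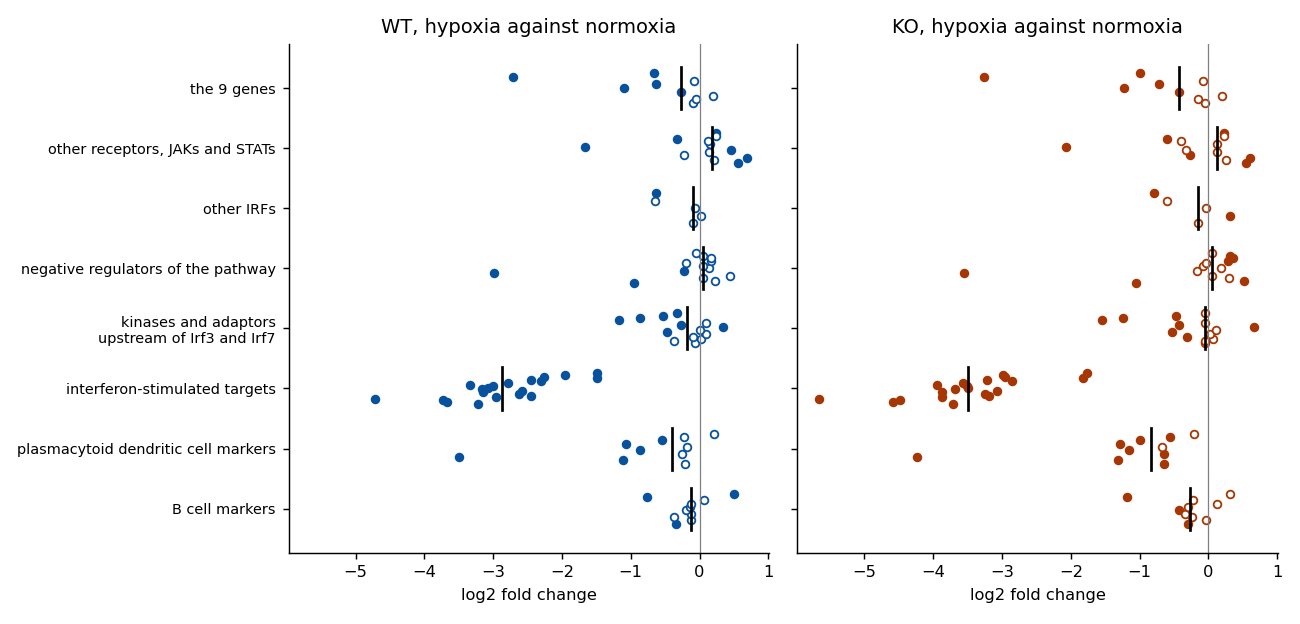
Log2 fold changes of hypoxia against normoxia for the 9 genes, 5 lists of the pathway, and the markers of plasmacytoid dendritic cells and B cells, in WT (left) and KO (right). Each point is a gene, filled where the edgeR adjusted p was at most 0.05, and the black bar is the median of the list. All 20 interferon-stimulated targets lie below 0, with medians of -2.87 and -3.50.

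The interferon genes themselves were close to the limit of detection. Ifnb1 and the listed Ifna genes, 15 in all, were summed without the other type I genes Ifnk, Ifne and Ifnz. They had 19, 27 and 35 counts in WT normoxia and 2, 2 and 8 counts in WT hypoxia. In KO they had 66, 34 and 27 counts in normoxia and 5, 13 and 3 in hypoxia. In this sum all hypoxia libraries were thus below all normoxia libraries, on so few reads that the genes were left out of the test. Reads of near-identical Ifna genes could not be assigned with certainty. Not every gene followed the sum. Among those that did not, Ifnk averaged 0.046 CPM in WT normoxia and 0.081 CPM in WT hypoxia, and 0.051 and 0.096 CPM in KO. Ifna7 and Ifna13 were at 0 CPM in KO normoxia and averaged 0.137 and 0.054 CPM in KO hypoxia. Ifng, the type II interferon, was the only ligand of 21 listed that was tested, and it fell by 1.33 in WT (edgeR adjusted p = 0.0103) and fell by 1.05 in KO (adjusted p = 0.0368), at 20 to 124 counts per library.

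As a sum, markers of plasmacytoid dendritic cells were also lower in hypoxia, with a median log2 fold change of -0.40 in WT and -0.83 in KO. Of 10 markers, 5 fell in WT hypoxia and 8 in KO, none rose and none was at 0 in any group. Their summed level was 1656 to 1843 CPM in WT normoxia and 1289 to 1481 CPM in WT hypoxia, and 1648 to 1912 CPM in KO normoxia and 1064 to 1170 CPM in KO hypoxia. Siglech, a defining surface marker, was at 590, 598 and 653 CPM in WT normoxia and at 565, 477 and 542 CPM in WT hypoxia, a log2 fold change of -0.22 that was not called (edgeR adjusted p = 0.101), and it fell by 0.64 in KO. Klk1 fell by 3.50 in WT and fell by 4.23 in KO. With the mean marker level as a covariate, the fitted values in WT were -2.63 for Irf7, -0.78 for Stat2, -0.52 for Irf1, -0.34 for Irf9 and -0.47 for Tyk2. In KO they were -3.15 for Irf7, -0.75 for Stat2, -0.55 for Irf1, -0.51 for Irf9 and -0.74 for Tyk2. In that fit 0 of the 9 and 0 of 17506 genes were called in either genotype. Marker level and condition separate the libraries in the same way and cannot be told apart there.

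The summed T and NK cell markers were also lower in hypoxia, 193 to 255 CPM against 71.6 to 86.1 CPM in WT and 211 to 231 CPM against 54.7 to 65.6 CPM in KO, with 2 of 10 and 3 of 10 genes called lower and none at 0. The pair called in WT, Cd4 and Cd8a, made up most of the sum, and the other gene called in KO was Cd3d. Cd4 averaged 135 CPM in WT normoxia and 40.2 CPM in WT hypoxia, and Cd8a 72.0 and 26.0 CPM, and both are also carried by mouse plasmacytoid dendritic cells. The summed B cell markers were 8448 to 9273 CPM in WT normoxia and 7693 to 8401 CPM in WT hypoxia. In KO they were 7724 to 8542 CPM in normoxia and 7078 to 7473 CPM in hypoxia. These sums were thus also lower in hypoxia without overlap in both genotypes. Of the 10 B cell markers, 2 were called lower and 1 higher in WT, and 3 lower and 0 higher in KO. The summed levels of the monocyte, neutrophil and erythroid markers overlapped between the conditions in both genotypes, while single genes moved. Of 12 monocyte and macrophage markers 3 fell and 2 rose in WT, and 4 fell and 4 rose in KO. Of 10 neutrophil markers 2 rose in WT and 3 in KO, and of 7 erythroid markers 1 rose in WT and 0 in KO. Over all genes, 16.3% were called lower and 11.4% higher in WT, and 15.7% and 14.5% in KO. Monocyte and neutrophil marker levels were covariates in an alternative fit, and the part of the cells named here was not tested further.

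With only the libraries that held Xist and no Y-linked reads, which leaves 1 WT library per condition, 2 of the 9 were called in WT, Stat2 (-1.08, edgeR adjusted p = 0.012) and Irf1 (-0.52, adjusted p = 0.0256). Irf7 had -2.67 (adjusted p = 0.13), Irf9 -0.63 (adjusted p = 0.259) and Tyk2 -0.35 (adjusted p = 0.0769). The lone WT libraries are there assumed to vary like the other groups. In KO all 5 genes were called in that fit, Irf7 at -3.17 (adjusted p = 0.0183). Over all 18723 genes tested in that fit, 1070 were called in WT and 4472 in KO.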

How the data were processed

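The deposited table holds raw read counts of 12 libraries for 46983 Ensembl genes, which the authors had not normalized. The labels name bead-sorted bone marrow B cells, total RNA and a TruSeq kit, and the submitters' processing notes name CASAVA, Bowtie 0.12.2 and mm10. Which counter, annotation release and strand option were used is not given in the sources used here, and reads of overlapping or near-identical genes are therefore uncertain. Symbols, coordinates and exon lengths came from GENCODE vM21 for the same build.

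Counts were scaled by TMM and fitted in edgeR 4.0.16 under R 4.3.3, after the default filter on low counts (17506 genes kept, 0.074% of reads left out). The model held 1 mean per group over the 12 libraries, and F tests from the quasi-likelihood fit were called at a Benjamini-Hochberg adjusted p of 0.05. CPM are TMM-scaled, and log2 CPM use a prior count of 2. The steps were checked on simulated data. Library depth was 27629175 to 36880082 counts. No libraries were duplicates.

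The members and lists were chosen with earlier results of these data known. Beside the 9 genes and the checks Hif1a, Cd79a and Ankrd37, the text names from each list up to 3 called genes with the smallest adjusted p in WT hypoxia against normoxia, and per member the 3 genes with the highest Pearson r. A gene taken by this rule is left unreported. Same-numbered WT libraries of the conditions deviated together (r = 0.196, 0.36 and 0.434). The reported fit holds no pairing, and a replicate block is given as an alternative. WT numbers split by Y-linked reads in the same way in both conditions, so a pairing and sex cannot be told apart there. For KO the values were 0.182, -0.0391 and 0.12, so whether its numbers pair is unclear. Alternatives were RLE scaling, TMM factors computed without mitochondrial and immunoglobulin genes, no low-count filter or one at CPM 1 in 3 libraries, only the compared groups, a replicate block, DESeq2 1.42.0, marker levels as covariates, only libraries with Xist, and each library left out. A block within genotype was added after seeing the data.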

Additional observations from a re-analysis of the deposited data

How the results depend on the processing

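None of the 65 reversed signs among the alternatives fell on a value called in the reported fit, and the other results kept their direction. The number of members called in WT hypoxia against normoxia was 5, 0 with the plasmacytoid marker level as a covariate and 2 with only Xist libraries. It was 6 with DESeq2, the CPM filter and either replicate block, Jak1 being added, and 4 with only the compared groups or the monocyte and neutrophil covariates, Tyk2 being lost. In KO it was 5, 0 with the plasmacytoid covariate, and 6 with only the compared groups and either block (Jak1). With each library left out it ran from 4 to 6 in WT, without WT normoxia libraries 1 and 3, and from 5 to 6 in KO. For KO against WT in hypoxia it was 0, 1 with the replicate block (Ifnar2, -0.22, edgeR adjusted p = 0.0489), 1 with DESeq2 (Irf7), and 0 to 2 with each library left out. Over all genes tested, 2257 of 17506 were called there with the replicate block and 2404 of 14432 with DESeq2. Without KO hypoxia library 3, which gave the 2 member calls, 1266 of 18079 were called. Replicate numbers did not pair the genotypes, and whether they pair the KO libraries is unclear. Only in WT did the block follow libraries that clearly deviated together. With it Jak1 was called higher in WT (0.20, edgeR adjusted p = 0.0462) and KO (0.20, 0.0436), and with the block within genotype, chosen after seeing the data, also in WT (0.20, 0.0314) and KO (0.20, 0.0297). In hypoxia against normoxia, neither block changed another call.

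Uncalled log2 differences changed sign as follows. For the KO minus the WT response, Jak1 had -0.016 with RLE, -0.047 without immunoglobulin and mitochondrial genes, -0.048 unfiltered, -0.021 with the CPM filter, -0.015 with DESeq2, -0.0046 with monocyte and neutrophil covariates, -0.012 with the plasmacytoid covariate, -3.4e-05 with the replicate block and -2.2e-05 with the block within genotype. In the first 5 of these settings, in that order, Irf3 had -0.014, -0.045, -0.047, -0.020 and -0.014, and it had -0.086 with Xist libraries and -0.0041 with the block within genotype. Ifnar1 had -0.0058 without immunoglobulin and mitochondrial genes and -0.0068 unfiltered, and Stat2 had 0.032 with the plasmacytoid covariate. For KO against WT in normoxia, Tyk2 had 0.012, 0.024, 0.024, 0.016 and 0.013 in the same 5 settings, 0.015 with only the compared groups and 0.067 with monocyte and neutrophil covariates. Those covariates gave there 0.049 for Ifnar1, -0.012 for Irf1 and 0.38 for Irf7, and Xist libraries 0.18 for Irf3, -0.048 for Jak1 and -0.027 for Stat2. For KO against WT in hypoxia, Ifnar1 had -0.010 without immunoglobulin and mitochondrial genes, -0.011 unfiltered and -0.080 with Xist libraries, which gave 0.089 for Irf3. Stat2 had 0.032 with monocyte and neutrophil covariates and 0.17 with the plasmacytoid one, which gave 0.035 for Irf1 and 0.077 for Irf3. For hypoxia against normoxia in KO, Ifnar1 had 0.0040 with monocyte and neutrophil covariates and 0.044 with the plasmacytoid one, which gave 0.21 for Irf3, and in WT Irf3 had 0.11 with the plasmacytoid covariate and 0.052 with Xist libraries. The causes were not tested.

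With each library left out in turn, values that changed sign ran as follows. In WT hypoxia against normoxia, Irf3 ran from -0.20 to 0.029, and in KO Ifnar1 ran from -0.070 to 0.026. For KO against WT in hypoxia, Ifnar1 ran from -0.028 to 0.085, Stat2 from -0.095 to 0.066, Irf1 from -0.046 to 0.043 and Irf3 from -0.063 to 0.018. In normoxia Ifnar1 ran from -0.12 to 0.010, Tyk2 from -0.093 to 0.044 and Irf3 from -0.16 to 0.067. For the difference of responses, Irf1 ran from -0.11 to 0.0049, Irf3 from -0.089 to 0.14 and Jak1 from -0.044 to 0.090. With 3 libraries a group, the intervals of uncalled members leave room for changes of the sizes given with them.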
